A study of Mus musculus with 17 samples.

Results

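The granins and the enzymes that process prohormones were followed at the RNA level in mouse cortex with and without Chga, the gene of chromogranin A (CgA). The group holds 10 genes, chosen by symbol with earlier results of these data known. Chga, Chgb, Scg2, Scg3, Scg5, Vgf and Pcsk1n are granins or granin-like genes, and Pcsk1, Pcsk2 and Cpe are processing enzymes. All 10 were found once each among the 56953 genes of the count table, and all 10 were among the 23062 genes with enough counts to test. The question was whether the other 9 change when Chga is lost.

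RNA came from the prefrontal cortex of 8-month-old mice on the B6C3F1/J background, with 5 WT, 6 PS19 and 6 CgA-KO/PS19 libraries. PS19 mice, which the labels call hTau, are heterozygous for a transgene of human Tau with the P301S mutation, driven by the prion protein gene (Prnp) promoter. CgA-KO/PS19 mice carry the same transgene and lack Chga congenitally in the whole body, so that they share the transgene with PS19 and differ from WT by both alleles. No library of mice that lack Chga without the transgene was analysed here, and loss of Chga could be compared only on the PS19 background.

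Granins are acidic proteins packed into the dense-core vesicles of neurons and endocrine cells, where they help to condense the cargo and are themselves cut into peptides. Prohormone convertases cut precursor proteins after pairs of basic residues, carboxypeptidase E trims the basic residues left at the new ends, and Scg5 and Pcsk1n encode small partners that each bind and restrain a convertase. In cortex these genes are expressed mainly in neurons that release neuropeptides, while Cpe is also expressed in glia.

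Library totals ran from 8838334 counts in WT replicate 4 to 227651681 in PS19 replicate 6. PS19 replicates 4, 5 and 6 resembled each other closely, with a robust SD of the log2 ratio between libraries of 0.0525 to 0.0608 over 3761 well-counted genes, as did CgA-KO/PS19 replicates 1 and 3 (0.0989), whereas every other pair within a genotype lay between 0.147 and 0.597. Ddx3y, a gene on the Y chromosome, marked replicates 1 to 3 in all 3 genotypes, with 49.8 to 76.8 counts for every 1000000 in the library (CPM), and did not exceed 0.0582 CPM in the rest. Sex was not given beside the libraries. CgA-KO/PS19 replicates 1 to 3 stood apart from the other 14 libraries in markers of several cell types and in mitochondrial counts, and their values are given separately for each member. Prnp, whose promoter drives the transgene, was at 748 to 914 CPM in the WT libraries and at 1974 to 2368 CPM with the transgene alone. With Chga lost too, Prnp was at 1236 to 1348 CPM in replicates 1 to 3 and at 1676 to 2079 CPM in replicates 4 to 6. The part of this split in the levels of the members was not tested. Slc17a7, a transporter of cortical excitatory neurons, was at 492 CPM or more in each of the 17 libraries. The pituitary list (Gh, Prl, Tshb and Lhb, the last under 2 identifiers) summed to 34.0 CPM in WT replicate 4 against at most 9.23 CPM elsewhere, and the choroid plexus list summed to 1091 CPM in WT replicate 5 against at most 17.7 CPM elsewhere.

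Chga, the deleted gene, had 0 counts in 6 of 6 CgA-KO/PS19 libraries. It lies on chromosome 12 at 102554969 to 102565028 on the + strand of GRCm38. The 5 WT libraries read 152, 160, 168, 152 and 180 CPM, and the PS19 libraries ran from 162 through a median of 166 to 177 CPM. Of the WT libraries, 3 of 5 lay below and 1 above the PS19 range, and all WT and PS19 libraries stood far above the knockout. About 3 deposited counts stood for 1 sequenced fragment, and a count of 0 was taken to allow 3 fragments, which in the shallowest CgA-KO/PS19 library comes to 0.26 CPM. Against that limit, which covers counting error only, Chga was at least 647-fold higher in PS19 and at least 625-fold higher in WT. Between WT and PS19 the log2 fold change of Chga was -0.05 ± 0.08 (SE; 95% interval -0.22 to 0.12; edgeR's quasi-likelihood test, adjusted p = 0.956). The SE and interval were calculated from the F statistic of that test. For Chga they are narrower than its unadjusted p of 0.873 by edgeR implies.

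The sequences before the start sites of Chga and of Chgb, Scg2, Pcsk1 and Pcsk2 are shown because the latter 4 genes read below all other libraries in the same CgA-KO/PS19 libraries. The sequences are the RefSeq reference (GRCm38.p6), the 120 bases just before each start, 5′ to 3′ on the gene's own strand, with capitals marking TGACGTCA, the palindromic cAMP response element, or its first part TGACG, on either strand.
Chga (chr12:102554821-102554940, + strand): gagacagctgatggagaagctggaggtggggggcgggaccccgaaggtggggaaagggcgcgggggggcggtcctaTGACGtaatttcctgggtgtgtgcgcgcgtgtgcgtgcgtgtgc
Chgb (chr2:132781522-132781641, + strand): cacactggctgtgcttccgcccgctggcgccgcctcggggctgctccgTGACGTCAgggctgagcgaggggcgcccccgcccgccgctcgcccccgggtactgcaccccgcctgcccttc
Scg2 (chr1:79440027-79440146, - strand): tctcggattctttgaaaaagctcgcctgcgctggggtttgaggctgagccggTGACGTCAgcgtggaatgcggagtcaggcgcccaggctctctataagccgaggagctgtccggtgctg
Pcsk1 (chr13:75089737-75089856, + strand): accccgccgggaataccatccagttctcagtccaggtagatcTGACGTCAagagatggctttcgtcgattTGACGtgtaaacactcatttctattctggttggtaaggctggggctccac
Pcsk2 (chr2:143546013-143546132, + strand): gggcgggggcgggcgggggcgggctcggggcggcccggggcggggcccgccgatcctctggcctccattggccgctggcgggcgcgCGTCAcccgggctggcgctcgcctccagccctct

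The full palindrome TGACGTCA began 72 bases before the start of Chgb, 68 before that of Scg2 and 78 before that of Pcsk1, and it was not in the promoter of Pcsk2, which was low in the same libraries. Promoters of 300 bases, from 250 before to 50 after the start, were given for 8 of the 10 members, and those of Vgf and Cpe were not analysed here. The palindrome was in 3 of these 8 and in 588 of the 32851 mouse promoters searched (1.79%). The shorter TGACG, which is part of the palindrome and was searched on both strands, was in 7 of the 8 and in 20.8% of all promoters, Pcsk1n being the member without it. Chga alone of the 8 held TATAAA, on either strand, which was in 13.6% of all promoters. In Chga it lay within the 50 bases after the start, outside the printed sequence. The starts are those of the promoter sequences and can differ from the gene bounds. For Chga the bases before the start end at 102554940, and the annotated gene begins at 102554969. A match is a description of the letters, and binding was not measured.

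None of the other 9 members passed an FDR of 0.05 between CgA-KO/PS19 and PS19. In this comparison 9.72% of all tested genes were called (5.5% higher and 4.22% lower). Chga was called too, but as the deleted gene its call was fixed in advance and is not set against this share. At an unadjusted p under 0.05 there were 4 of the 9, namely Scg3 and Cpe with higher means and Scg5 and Pcsk2 with lower means in the knockout, beside 27.8% of all genes. DESeq2 also called 0 of the 9, beside 15.2% of genes, whereas limma voom with quality weights called those 4, along with 22.7% of all genes. The threshold in the study's methods, which asks for a log2 change over 0.5 and p below 0.01 without adjustment, was passed by 0 of the 9 and by 9.73% of genes. The median log2 fold change of the 9 was -0.08, and that of all genes 0.03. For 0 of the 9 did the 2 genotypes fail to overlap, as they did for 6.63% of genes.

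**Figure D1:**
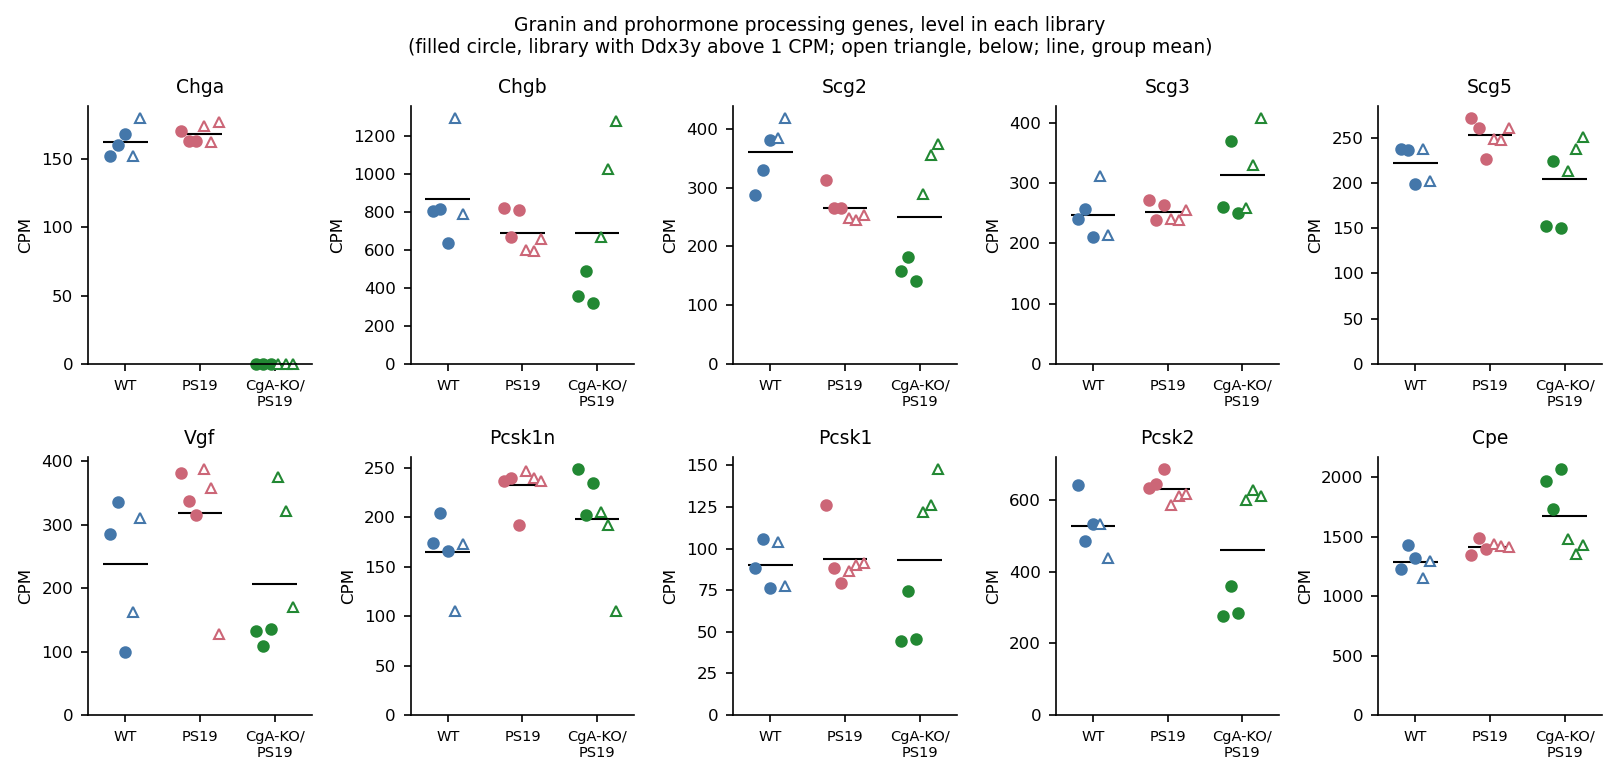
Level of each of the 10 genes in each library, in CPM (y axis from 0), for 5 WT, 6 PS19 and 6 CgA-KO/PS19 libraries. Filled circles are libraries with Ddx3y above 1 CPM (replicates 1 to 3), open triangles those below, and lines are group means. In CgA-KO/PS19 the circles of Chgb, Scg2, Pcsk1 and Pcsk2 lie below, and those of Cpe above, every other library.

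Chgb, the gene of the other chromogranin, kept the same mean without Chga but spread widely. The WT libraries read 804, 812, 634, 1293 and 788 CPM, PS19 ran from 596 through 661 to 819 CPM, and CgA-KO/PS19 from 320 through 579 to 1277 CPM. The spread had 2 ends. CgA-KO/PS19 replicates 1 to 3 read 357, 491 and 320 CPM, below the lowest of the other 14 libraries, and replicates 4 to 6 read 667, 1022 and 1277 CPM. Over all libraries the mean was 689 ± 386 CPM (SD, n = 6) in CgA-KO/PS19 and 690 ± 99.8 CPM (SD, n = 6) in PS19. The fitted fold was 0.998 (95% interval 0.661 to 1.51, adjusted p = 0.996).

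Scg2, which encodes secretogranin II, the precursor of secretoneurin, behaved in the same way. The WT libraries read 287, 331, 382, 385 and 419 CPM and PS19 ran from 245 through 259 to 314 CPM. In CgA-KO/PS19, replicates 1 to 3 read 159, 182 and 141 CPM and replicates 4 to 6 read 290, 356 and 374 CPM. The former lay below the other 14 libraries and the latter within or above the PS19 range, and the log2 fold change against PS19 was -0.08 ± 0.21 (SE; 95% interval -0.52 to 0.35, adjusted p = 0.832).

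Scg3 encodes secretogranin III, which tethers granin aggregates to the vesicle membrane and binds both chromogranin A and carboxypeptidase E. The WT libraries read 240, 257, 211, 311 and 213 CPM, PS19 from 238 through 249 to 272 CPM, and CgA-KO/PS19 from 250 through 295 to 408 CPM. Here 3 of 6 knockout libraries (replicates 2, 5 and 6) were above each PS19 library and none was below. The fold was 1.24 (95% interval 1.03 to 1.5, adjusted p = 0.121 over all genes by edgeR). In the knockout, replicates 1 to 3 read 261, 370 and 250 CPM and replicates 4 to 6 read 259, 329 and 408 CPM, so that Scg3 did not split as Chgb and Scg2 did.

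Vgf encodes a granin-like precursor of several neuropeptides and is known as a neurotrophin and activity-responsive gene. It was the most variable member in WT and PS19. The WT libraries read 285, 335, 99.5, 163 and 311 CPM, PS19 ran from 127 through 348 to 388 CPM, and CgA-KO/PS19 from 108 through 153 to 375 CPM. A low level was found in each genotype, in WT replicates 3 and 4, in PS19 replicate 6 and in CgA-KO/PS19 replicates 1, 2, 3 and 6. The fold of CgA-KO/PS19 over PS19 was 0.652 with a 95% interval of 0.391 to 1.09 (adjusted p = 0.262), so that a fold well under 1 and no difference both lay within it. PS19 replicate 6 was low for Vgf (127 CPM, against 388 and 358 CPM in its near-identical neighbours, replicates 4 and 5), while its Chgb, Scg2 and Pcsk2 were within the range of the other PS19 libraries.

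Scg5 encodes 7B2, the chaperone and inhibitor of the convertase PC2, and Pcsk1n encodes proSAAS, an inhibitor of PC1/3. Scg5 in WT read 238, 236, 199, 238 and 202 CPM, in PS19 226 through 255 to 272 CPM, and in CgA-KO/PS19 150 through 219 to 251 CPM. In 4 of 6 knockout libraries Scg5 was below each PS19 library, with a fold of 0.809 (95% interval 0.678 to 0.966, adjusted p = 0.113 by edgeR). Pcsk1n in WT read 174, 204, 166, 105 and 173 CPM, in PS19 192 through 238 to 247 CPM, and in CgA-KO/PS19 105 through 203 to 249 CPM. The fold of Pcsk1n was 0.853 (95% interval 0.664 to 1.10, adjusted p = 0.405). Its lowest values were in WT replicate 4 and CgA-KO/PS19 replicate 6, the shallowest library of each genotype, and unlike Chgb and Scg2 it was within the range of PS19 or just above it in CgA-KO/PS19 replicates 1 to 3 (249, 202 and 235 CPM).

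Of the convertases, Pcsk1 (PC1/3), which makes the first cuts in many precursors, averaged 93.5 ± 44.5 CPM in CgA-KO/PS19 and 93.4 ± 16.3 CPM in PS19 (SD, n = 6 each). WT read 88.1, 106, 76.5, 104 and 77.5 CPM and PS19 79.3 through 89.2 to 126 CPM. The knockout split again, with 44.6, 74.7 and 45.4 CPM in replicates 1 to 3, below the other 14 libraries, and 122, 126 and 148 CPM in replicates 4 to 6. The fold over all libraries was 1.0 (95% interval 0.693 to 1.44). Pcsk2 (PC2), which cuts later in the pathway, read 644, 487, 535, 533 and 440 CPM in WT, 588 through 626 to 688 CPM in PS19, and in CgA-KO/PS19 278, 361 and 284 CPM in replicates 1 to 3 and 601, 629 and 613 CPM in replicates 4 to 6. Replicates 4 to 6 sat inside the PS19 range and replicates 1 to 3 below the other 14 libraries. The overall fold of Pcsk2 was 0.731 (95% interval 0.553 to 0.965, adjusted p = 0.133 by edgeR).

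Cpe, the carboxypeptidase that follows both convertases, went the other way. WT read 1233, 1433, 1321, 1152 and 1294 CPM and PS19 1348 through 1418 to 1487 CPM. CgA-KO/PS19 replicates 1 to 3 read 1970, 1733 and 2073 CPM, above the other 14 libraries, and replicates 4 to 6 read 1478, 1358 and 1433 CPM, inside the PS19 range. The overall fold against PS19 was 1.18 (95% interval 1.01 to 1.38, adjusted p = 0.154 by edgeR).

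**Figure D2:**
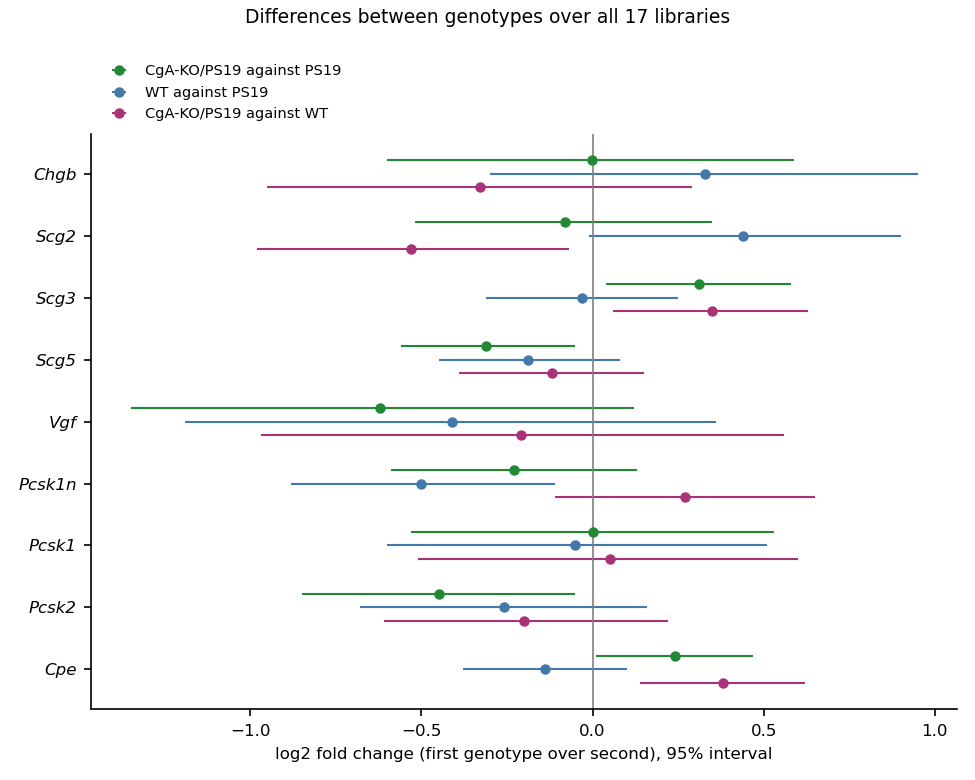
log2 fold change (x axis) of the 9 members other than Chga in the 3 comparisons of genotypes, fitted by edgeR over 17 libraries, with bars for the 95% interval of each. The intervals for CgA-KO/PS19 against PS19 include 0 for Chgb, Scg2, Vgf, Pcsk1n and Pcsk1, and none of the 27 estimates passed an FDR of 0.05.

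WT and PS19 differ by the transgene, but striatal markers differed too (701 to 2925 CPM in WT, 226 to 262 CPM in PS19). Between them, none of the 10 members passed an FDR of 0.05 by edgeR, beside 5.9% of all genes. DESeq2 also called 0 of 10 beside 9.81% of genes, and voom called Pcsk1n alone (adjusted p = 0.0185) beside 17.2%. By edgeR, 1 of the 9 had an unadjusted p under 0.05, beside 20.9% of genes. That gene was Pcsk1n, whose fold of WT over PS19 was 0.709 (95% interval 0.543 to 0.924, adjusted p = 0.122 by edgeR), with 4 of 5 WT libraries below each PS19 library. Scg2 read above each PS19 library in 4 of 5 WT libraries, with a fold of 1.36 (95% interval 0.990 to 1.86, adjusted p = 0.255). Scg2 and Pcsk1n each passed an FDR of 0.05 when WT and PS19 were fitted without the knockout libraries, beside 10.5% of genes. Pcsk1n also passed when CgA-KO/PS19 replicate 6 alone was left out of the shared fit (adjusted p = 0.033, beside 7.21% of genes), and Scg2 when CgA-KO/PS19 replicates 1 to 3 were left out of it (fold 1.35, adjusted p = 0.018, both by edgeR, beside 9.21% of genes). Over all genes 3.95% were called higher and 1.95% lower in WT. The median log2 fold change of the 9 was -0.14 beside -0.01 for all genes. WT and CgA-KO/PS19 were both set against the same PS19 libraries, so that the 2 sets of folds are not independent.

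Between CgA-KO/PS19 and WT, which differ by both alleles, Chga was called and none of the other 9, beside 6.46% of all genes (3.56% higher and 2.89% lower in the knockout). At an unadjusted p under 0.05 there were 3 of the 9, beside 21.7% of genes. Cpe came closest, with a fold of 1.3 (95% interval 1.10 to 1.53, adjusted p = 0.0524 by edgeR) and 5 of 6 knockout libraries above each WT library, and DESeq2 called it at a fold of 1.32 (adjusted p = 0.014), beside 9.87% of genes. Voom called Cpe and Scg2, beside 10.7% of genes. With a single library left out, Cpe passed without CgA-KO/PS19 replicate 4, 5 or 6 (adjusted p = 0.0342, 0.0251 and 0.0312) and Scg3 without WT replicate 4 (adjusted p = 0.0476, all by edgeR), where 8.45%, 7.46%, 8.07% and 8.89% of genes were called. Scg2 had a fold of 0.694 (95% interval 0.506 to 0.953, adjusted p = 0.163) and Scg3 of 1.27 (95% interval 1.04 to 1.55, adjusted p = 0.139). The median log2 fold change of the 9 was -0.12 beside 0.01 for all genes.

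The split within the knockout was then described, and the fits in this paragraph were added after the values had been seen. In CgA-KO/PS19 replicates 1 to 3, Chgb, Scg2, Pcsk1 and Pcsk2 each lay below the other 14 libraries, as did 6.45% of all genes, and Cpe lay above them, as did 7.01%. Among the libraries with Ddx3y, 8 of the 10 members, the deleted Chga included, differed between CgA-KO/PS19 and PS19 at an FDR of 0.05. So did 31.1% of all genes. There Chgb had a fold of 0.515 (adjusted p = 0.00391), Scg2 of 0.576 (adjusted p = 0.0031), Pcsk2 of 0.474 (adjusted p = 0.000828) and Vgf of 0.369 (adjusted p = 0.0157), and Cpe had a fold of 1.38 (adjusted p = 0.00644, all by edgeR). Pcsk1 and Scg5 also fell, with folds of 0.568 and 0.701, and Scg3 and Pcsk1n did not pass. With replicates 1 and 3 averaged as 1 library, 6 members were called, Scg5 and Pcsk1 no longer among them, beside 18.6% of genes. Among the libraries without Ddx3y, Chga alone was called, beside 0.806% of genes. In these Pcsk2 had a fold of 1.0 (95% log2 interval -0.22 to 0.22), Cpe of 0.987 (adjusted p = 0.944), Scg2 of 1.35 (adjusted p = 0.175), Chgb of 1.58 (adjusted p = 0.311) and Pcsk1 of 1.46 (adjusted p = 0.131, all by edgeR).

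The fits in this paragraph were also added after the split had been seen in these same values. Their p-values are therefore no independent support for the split. The difference between the 2 sets of folds above was itself tested. For CgA-KO/PS19 against PS19 it passed an FDR of 0.05 for 5 of 10 members, Scg2, Pcsk2, Chgb, Pcsk1 and Cpe, beside 11.7% of all genes, but with the near-identical libraries averaged it passed for 0 of 10, beside 0.00447% of genes. The averaging left 1 PS19 library without Ddx3y, whose spread was assumed to be that of the other groups. The differences, without Ddx3y minus with it on the log2 scale, changed little in size, from 1.26 to 1.23 for Scg2, from 1.11 to 1.04 for Pcsk2, from 1.65 to 1.56 for Chgb, from 1.40 to 1.26 for Pcsk1 and from -0.45 to -0.42 for Cpe. The unadjusted p with the libraries averaged, by edgeR, was 0.00075 for Scg2, 0.0013 for Pcsk2, 0.00706 for Chgb, 0.0113 for Pcsk1 and 0.0492 for Cpe. With replicates 1 to 3 left out and 4 to 6 kept as the knockout, Chga was the only member called against PS19, beside 1.46% of genes, and the folds were 1.42 for Chgb, 1.27 for Scg2, 1.40 for Pcsk1, 0.967 for Pcsk2 and 0.997 for Cpe. Against WT, the same 3 knockout libraries gave Pcsk1 a fold of 1.46 (adjusted p = 0.0494 by edgeR), beside 4.16% of genes.

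**Figure D3:**
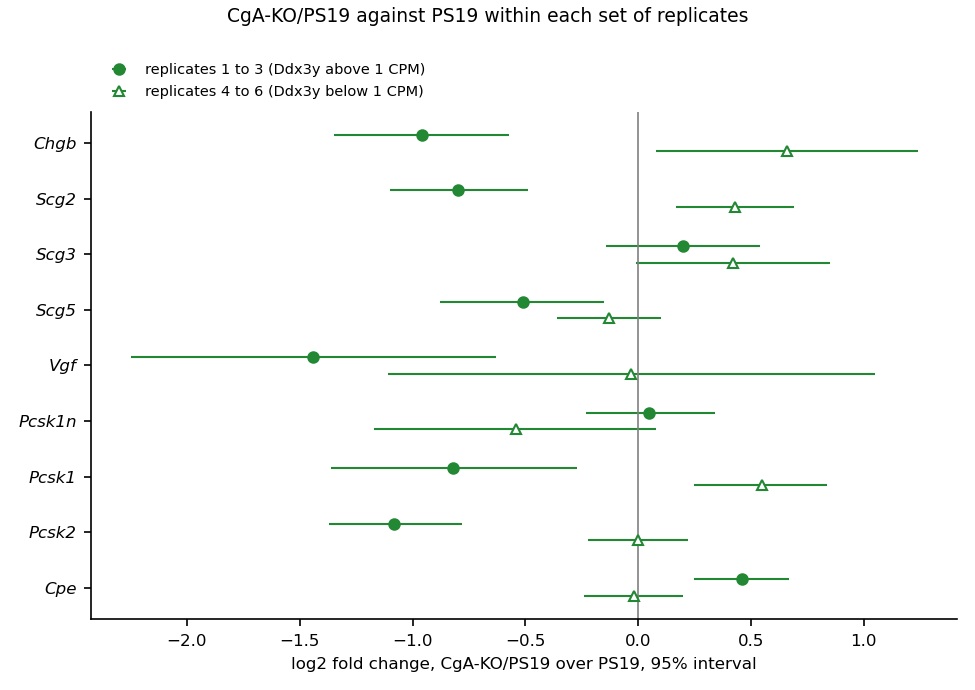
log2 fold change of CgA-KO/PS19 over PS19 (x axis) with its 95% interval for the 9 members other than Chga, fitted separately in replicates 1 to 3 (filled circles, Ddx3y above 1 CPM) and in replicates 4 to 6 (open triangles, Ddx3y below 1 CPM). Pcsk2 and Cpe lie near 0 in replicates 4 to 6 and at -1.08 and 0.46 in replicates 1 to 3. In replicates 4 to 6 the intervals of Scg2, Chgb and Pcsk1 lie above 0, and the PS19 libraries of that fit are near-identical.

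The libraries in which these members were low also differed in markers of other cell types. The oligodendrocyte list (Mbp, Mog, Mag, Cnp and Mobp) summed to 1285 to 1710 CPM in CgA-KO/PS19 replicates 1 to 3 against 313 to 801 CPM in the other 14 libraries, with 2 of its 5 genes above every other library. The astrocyte list summed to 1213 to 1374 CPM against 628 to 893 CPM, with 3 of 5 genes above. The list of GABAergic interneurons summed to 519 to 624 CPM against 823 to 1284 CPM, with 2 of 6 genes below, and no marker of these 3 lists was at 0 in all libraries. For interneurons, CgA-KO/PS19 replicates 4 to 6, at 823 to 899 CPM, also lay below WT (947 to 1284 CPM) and PS19 (1001 to 1174 CPM). The list of cortical excitatory neurons overlapped, at 1110 to 1534 CPM against 989 to 2446 CPM, with 0 of 8 genes apart. The mitochondrial share of counts was 13.8% to 18.2% in these libraries and 2.56% to 10.9% elsewhere. The part of these differences in the levels of Chgb, Scg2, Pcsk1, Pcsk2 and Cpe was not tested. With the oligodendrocyte level as a covariate, the folds of CgA-KO/PS19 over PS19 became 1.07 for Cpe, 0.819 for Pcsk2, 1.17 for Chgb, 1.04 for Scg2 and 1.15 for Pcsk1, and Scg3 (fold 1.36, adjusted p = 0.0157) and Pcsk1n (fold 0.707, adjusted p = 0.0318, both by edgeR) were called beside 15.0% of genes. The oligodendrocyte covariate was chosen after the values were seen, and its list was highest in CgA-KO/PS19 replicates 1 to 3. It cannot be told apart from the other differences of those libraries, and its part in these folds was not tested. In bulk tissue, fewer cells of a type and less RNA per cell cannot be told apart.

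**Figure D4:**
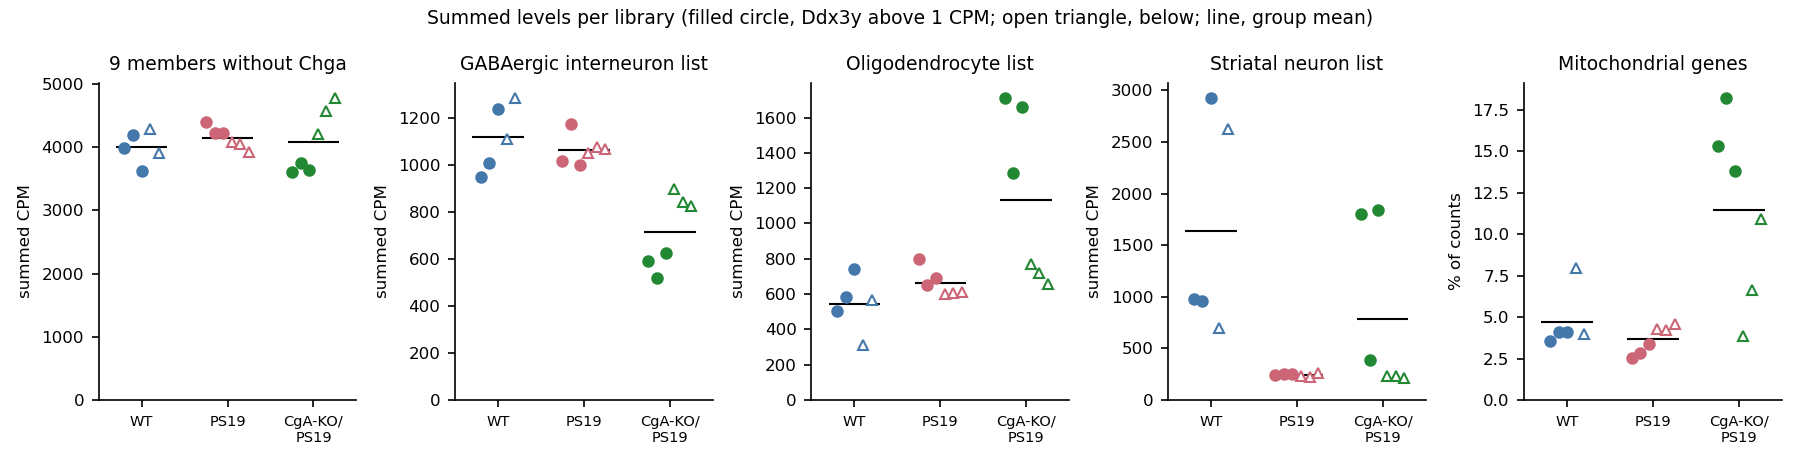
Summed CPM of the 9 members other than Chga, of the GABAergic interneuron, oligodendrocyte and striatal neuron lists, and the percentage of counts from mitochondrial genes (y axes from 0), per library by genotype. Filled circles are libraries with Ddx3y above 1 CPM, open triangles those below, and lines are group means. CgA-KO/PS19 replicates 1 to 3 are low for interneuron genes and high for oligodendrocyte and mitochondrial genes.

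The summed level of the 9 members varied less within a genotype than most of the single genes. It lay between 3623 and 4284 CPM for WT libraries, between 3918 and 4403 CPM for PS19, and between 3605 and 4779 CPM for CgA-KO/PS19, whose replicates 1 to 3 (3605 to 3744 CPM) made the lower end. Cpe, the largest term of the sum, was high where Chgb and Pcsk2 were low. Markers of striatal neurons, a region next to the cortex, summed to 701 to 2925 CPM in WT and 226 to 262 CPM in PS19. This difference accompanied the WT comparison, and with the striatal level as a covariate 7 members were called between WT and PS19, beside 18.0% of genes, including Chgb at a fold of 2.94 (adjusted p = 0.00188) and Pcsk1 at 2.21 (adjusted p = 0.00196, both by edgeR). The WT and PS19 striatal ranges did not overlap, so that this covariate and the genotype cannot be told apart in that comparison.

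Members that work as partners did not keep a fixed ratio. Scg5 over Pcsk2, the inhibitor and its convertase, was 0.370 to 0.484 in WT, 0.328 to 0.429 in PS19, 0.549, 0.621 and 0.527 in CgA-KO/PS19 replicates 1 to 3 and 0.355, 0.378 and 0.409 in replicates 4 to 6, as ratios of CPM within a library. Pcsk1n over Pcsk1 was 1.01 to 2.23 in WT and 1.89 to 2.87 in PS19, and in the knockout it ran from 0.714 in replicate 6 to 5.58 in replicate 1. Scg2 over Scg3 ran from 1.2 to 1.97 for WT, from 0.989 to 1.15 for PS19 and from 0.492 to 1.12 for CgA-KO/PS19. In replicates 1 to 3 the Scg5 to Pcsk2 ratio was above, and the Scg2 to Scg3 ratio below, that of every other library. These ratios are descriptions and were not tested.

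**Figure D5:**
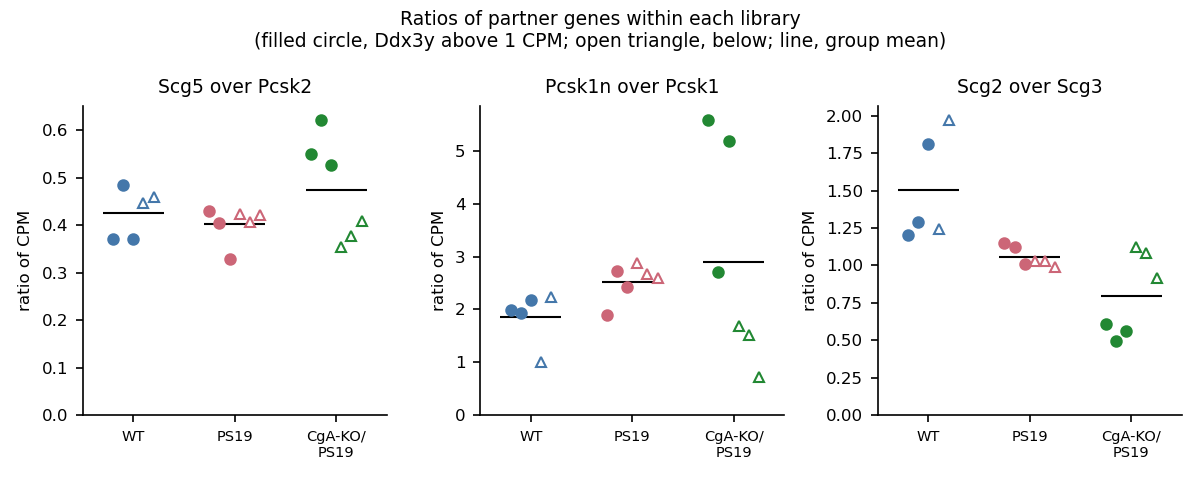
Ratio of CPM within each library for Scg5 over Pcsk2, Pcsk1n over Pcsk1 and Scg2 over Scg3 (y axes from 0), by genotype. Filled circles are libraries with Ddx3y above 1 CPM, open triangles those below, and lines are group means. The ratio of Pcsk1n to Pcsk1 spans 0.714 to 5.58 in CgA-KO/PS19 and 1.89 to 2.87 in PS19.

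Per kilobase of exon, the order of mean levels in PS19 was Cpe (543 ± 17.5 CPM per kb, SD, n = 6), Chgb (252 ± 36.4), Scg5 (161 ± 10.1), Vgf (107 ± 32.7), Pcsk1n (106 ± 9.23), Scg2 (106 ± 10.0), Scg3 (91.9 ± 5.30), Pcsk2 (79.8 ± 4.31), Chga (61.0 ± 2.42) and Pcsk1 (16.7 ± 2.91). The libraries of Cpe, Chgb and Scg5 did not overlap each other, and neither did those of Pcsk2, Chga and Pcsk1, while each neighbouring pair from Vgf to Pcsk2 in this order overlapped. Chga was thus next to the lowest of the 10 on this scale before it was lost. Cpe remained the highest and Pcsk1 the lowest of the genes still expressed in CgA-KO/PS19, at 642 ± 114 and 16.7 ± 7.93 CPM per kb.

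Across the 17 libraries, the members fell into genes that varied together and genes that did not. Pearson's r of log2(CPM + 1) was 0.87 between Chgb and Scg2, 0.84 between Chgb and Pcsk1 and 0.85 between Scg5 and Pcsk2, and it was -0.88 between Scg2 and Cpe. Scg3 was near 0 with Scg2 (0.01) and Pcsk2 (-0.01). These points share the libraries set apart above and are given without a test. Among 9876 genes with a mean of at least 10 CPM, the most alike by the same measure were Kctd13 for Chgb (0.983), Sf3a1 for Scg2 (0.976), Slitrk1 for Pcsk2 (0.981), Npy1r for Pcsk1 (0.949), Rnf7 for Cpe (0.973), Fbxo28 for Scg5 (0.941), Msi1 for Pcsk1n (0.967), Cyp51 for Scg3 (0.914) and Kcnc4 for Vgf (0.835). Vgf thus had the weakest match of the 9.

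The other genes of the pathway were counted from hand-written lists. Their calls are to be read beside the shares of all genes called higher and lower, which were 5.5% and 4.22% in CgA-KO/PS19 against PS19, 3.95% and 1.95% in WT against PS19 and 3.56% and 2.89% in CgA-KO/PS19 against WT. CgA-KO/PS19 replicates 1 to 3, with their differing glial, interneuron and striatal markers, enter these counts, and the part of those markers was not tested. The counts with replicates 4 to 6 as the knockout are given for each list, beside 1.46% of genes called against PS19. All these counts treat the near-identical libraries, PS19 replicates 4 to 6 among them, as separate. With such libraries averaged, 156 genes in place of 2242 were called in CgA-KO/PS19 against PS19. The lists were not counted in that fit. Of 7 further convertases, which include furin, 0 were called between CgA-KO/PS19 and PS19 and 1 between WT and PS19, Pcsk5, at 19.7 ± 3.56 CPM in WT and 11.2 ± 3.47 CPM in PS19 (adjusted p = 0.0343 by edgeR). Among 19 tested processing and peptide-degrading enzymes, no gene rose and 3 fell in CgA-KO/PS19 relative to PS19, namely Ctsb, a lysosomal protease that can also cut precursors (483 ± 103 against 679 ± 57.1 CPM), Qpctl and Thop1. Ctsb read 376, 417 and 400 CPM in knockout replicates 1 to 3 and 632, 571 and 501 CPM in replicates 4 to 6. With replicates 4 to 6 as the knockout, 0 of 7 convertases and 0 of 20 enzymes were called against PS19 (Ctsb log2 fold change -0.27, adjusted p = 0.209, and Thop1 -0.27, adjusted p = 0.37, by edgeR). In WT, 2 of the 19 were higher than in PS19 (Mme and Ece2, which degrade or process peptides) and 1 lower (Dpp4). Against WT, 0 of the 7 and 0 of the 19 were called in the knockout by edgeR. The median log2 fold change of CgA-KO/PS19 over PS19 was -0.08 for the convertases and -0.11 for the enzymes, beside 0.03 for all genes.

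Among 43 genes of dense-core vesicle formation and release, 3 rose and 4 fell in CgA-KO/PS19 relative to PS19. Cyb561, the vesicle cytochrome that carries electrons across the membrane, fell from 67.4 ± 11.3 to 35.0 ± 11.0 CPM (log2 fold change -0.95, adjusted p = 0.00623), with no overlap between the libraries. Its knockout libraries read 31.9, 21.8 and 37.4 CPM in replicates 1 to 3 and 54.5, 35.5 and 28.9 CPM in replicates 4 to 6. Rab3b (log2 fold change 0.51), Syt10 (1.35) and Baiap3 (2.29) were higher, and Cadps, Ptprn and Unc13d were the other lower genes (chosen beyond the rule for named genes, after their values were seen). Baiap3 was at 9.31, 2.17 and 9.98 CPM in knockout replicates 1 to 3 and at 2.92, 2.34 and 0.289 CPM in replicates 4 to 6. With replicates 4 to 6 as the knockout, 1 of the 43 was called against PS19, Rab3b (log2 fold change 0.74, adjusted p = 0.000815), whereas Cyb561 was not (-0.77, adjusted p = 0.0848), nor Syt10 (1.32, adjusted p = 0.122) or Baiap3 (1.03, adjusted p = 0.331, all by edgeR). Between WT and PS19, 5 of the 43 were higher in WT and 0 lower, and in CgA-KO/PS19 against WT 0 were higher and 3 lower, Syt9, Nucb2 and Cyb561. The median log2 fold change of CgA-KO/PS19 over PS19 was -0.14 for this list. Cyb561 was the member of the list called lower in the knockout against both other genotypes over all 17 libraries, but against neither with replicates 4 to 6 alone (adjusted p = 0.263 against WT by edgeR).

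Of 28 tested neuropeptide precursors, the substrates of these enzymes, 3 rose and 3 fell in CgA-KO/PS19 relative to PS19. Nppc fell from 4.38 ± 0.252 to 2.68 ± 0.299 CPM and Adcyap1, the precursor of PACAP, from 36.9 ± 2.91 to 18.8 ± 8.30 CPM (log2 fold changes -0.71 and -0.98, adjusted p = 0.00964 and 0.0171 by edgeR). Penk, which is abundant in striatal neurons, was at 139 ± 133 CPM against 32.5 ± 6.12 CPM, and Nts at 2.03 ± 2.48 against 0.113 ± 0.0664 CPM. Penk read 315, 101 and 300 CPM in knockout replicates 1 to 3 and 29.9, 41.3 and 46.5 CPM in replicates 4 to 6, and Nts at most 0.240 CPM in the latter. Adcyap1 read 10.5 to 12.4 CPM in replicates 1 to 3 and 25.9 to 26.6 CPM in replicates 4 to 6, all below the lowest PS19 library at 31.8 CPM. With replicates 4 to 6 as the knockout, 0 of these 4 genes were called against PS19 (adjusted p = 0.0987 for Adcyap1 and 0.13 for Nppc by edgeR), and 2 other precursors, Bdnf and Crh (named after their values were seen), were called higher. Between WT and PS19, 6 of the 28 were higher in WT and 0 lower, led by Trh and Penk, and in CgA-KO/PS19 against WT 1 was higher and 6 lower. The striatal markers, at 390 to 1840 CPM in CgA-KO/PS19 replicates 1 to 3 and 210 to 235 CPM in replicates 4 to 6, moved with Penk, and their part in its level was not tested.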

How the data were processed

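RNA was sequenced as paired-end mRNA libraries. The authors trimmed reads with Trimmomatic 0.39, aligned them to mm10 with STAR 2.7.10b, quantified genes with StringTie 1.3.6 and deposited whole-number counts made by prepDE, without normalization. The annotation release and the strand setting are not given in the sources used here, so reads of overlapping or antisense genes may be shared. Low counts peaked at 3 and 6 in 17 of 17 libraries, so that about 3 counts stood for 1 fragment.

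The 10 members and the gene lists were chosen with earlier results of these data known. Members were matched by symbol, and coordinates and exon lengths came from GENCODE M21 (52029 of 56953 identifiers matched). Counts were fitted with edgeR 4.0.16 in R 4.3.3 (TMM, filterByExpr, quasi-likelihood test, 1 mean per genotype, 17 libraries, Benjamini-Hochberg over 23062 genes, called at FDR under 0.05). CPM used TMM library sizes. All members are named; of each pathway list at most the 4 called genes with the smallest p per comparison, unless stated, and the gene most alike to each member. Replicates are separate libraries of a genotype, and p-values measure the spread between them. Alternatives were DESeq2 1.42.0, its size factors, limma 3.58.1 voom with quality weights, other filters, a replicate block, covariates, averaged near-identical libraries and each library left out. Fits within libraries with or without Ddx3y and the interaction between them were chosen after the values were seen. So were the oligodendrocyte covariate and the fits without mitochondrial genes or CgA-KO/PS19 replicates 1 to 3. A gene of the oligodendrocyte marker list is not reported here and was left out of its sums and covariate. The statistics were tested on simulated data. Figures were drawn with matplotlib 3.10.9.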

Additional observations from a re-analysis of the deposited data

Results flagged for a closer look

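In groups of 4 to 10 libraries, 29 sets of a member in a genotype were examined for a library far from the rest, and 5 were found. Chance alone would set apart about 1 in 20 if the libraries were independent. The near-identical libraries may not be, so that the number found cannot be set against that rate. Chgb in WT replicate 4 was at 1293 CPM, with the next WT library at 812 CPM. This is the shallowest library, and the one with the highest summed pituitary markers. Scg2 and Pcsk1 in PS19 replicate 1 were at 314 and 126 CPM, with the next PS19 libraries at 266 and 91.1 CPM. Vgf in PS19 replicate 6 was at 127 CPM, with the next at 315 CPM, and Pcsk1n in PS19 replicate 3 was at 192 CPM, with the next at 237 CPM.

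Loss of Chga went with different changes in the libraries without and with Ddx3y, by an interaction term in edgeR with FDR under 0.05. This term was fitted after the split had been seen in the same values. For CgA-KO/PS19 against PS19, the log2 fold change without Ddx3y minus that with Ddx3y was 1.26 for Scg2, 1.65 for Chgb, 1.11 for Pcsk2, 1.40 for Pcsk1 and -0.45 for Cpe. Against WT it was 0.81 for Scg2, 1.19 for Pcsk2 and 1.26 for Pcsk1. Both comparisons share the knockout libraries. With PS19 replicates 4 to 6 averaged as 1 library and CgA-KO/PS19 replicates 1 and 3 as another, 0 of these 8 differences passed. The averaging left 1 PS19 library without Ddx3y. The differences then were, against PS19, 1.23 for Scg2, 1.56 for Chgb, 1.04 for Pcsk2, 1.26 for Pcsk1 and -0.42 for Cpe, and against WT 0.78 for Scg2, 1.12 for Pcsk2 and 1.13 for Pcsk1. Ddx3y, the replicate number and the levels of Prnp, cell type markers and mitochondrial genes in the knockout libraries cannot be told apart here.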

How the results depend on the processing

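The low depth of WT replicate 4, the near-identical libraries and the marker and mitochondrial levels of CgA-KO/PS19 replicates 1 to 3 are the main limits. Chga was called in CgA-KO/PS19 against both other genotypes in each setting that kept it in the table, and it left the table when at least 10 counts were required in every library, which made the count of members called against PS19 0 and left Cpe as the 1 member called against WT (log2 fold change 0.43, adjusted p = 0.0378 by edgeR, beside 9.36% of genes). For CgA-KO/PS19 against PS19 the members called, Chga included, were 5 by limma voom (beside 22.7% of genes), 2 with the striatal covariate (7.75%), 3 with the oligodendrocyte covariate (15.0%), 8 within the libraries with Ddx3y (31.1%) and 6 with these averaged (18.6%). For WT against PS19 they were 2 with only the 2 genotypes (10.5%), 1 by voom (17.2%), 7 with the striatal covariate (18.0%), 1 within the libraries without Ddx3y (5.81%) and 1, Scg2, with CgA-KO/PS19 replicates 4 to 6 alone (9.21%). Between CgA-KO/PS19 and WT they were 2 by DESeq2 (9.87%), with its size factors (6.62%), with the Ddx3y covariate (7.66%), with the oligodendrocyte covariate (8.52%) and with CgA-KO/PS19 replicates 4 to 6 alone (4.16%), 3 by voom (10.7%), 7 with the striatal covariate (21.8%), and 5 within the libraries with Ddx3y (20.7%), averaged or not (10.5% when averaged). The cause of these changes was not tested. All genes called in the 3 comparisons, in the same order, numbered 3958, 2396 and 2564 by DESeq2, 5229, 3967 and 2458 by voom, and 156, 430 and 577 with near-identical libraries averaged. With the striatal covariate 4161 and 5026 genes were called in the comparisons with WT, and with only the 2 genotypes 2275 in WT against PS19 and 266 in CgA-KO/PS19 against WT.

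With the replicate number as a block, 654, 660 and 614 genes were called in the same 3 comparisons, and the log2 fold change of Pcsk1 turned to -0.11, 0.01 and -0.12. Deviations of same-numbered libraries correlated at -0.15 to 0.03, -0.06 to 0.14 and -0.26 to 0.47, so the numbers did not pair the libraries, and the block changed no member's call.

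Directions turned mainly where a fold lay near 1, and a member that turned was not called in the main comparison. For CgA-KO/PS19 against PS19, the log2 fold change of Chgb became 0.01 by DESeq2 and with only the 2 genotypes, 0.02 with DESeq2's size factors, 0.04 with at least 10 counts, 0.40 with the striatal covariate, 0.06 with libraries averaged, 0.66 without Ddx3y, 0.23 with the oligodendrocyte covariate and 0.51 with replicates 4 to 6 alone. Scg2 became 0.16 with the striatal covariate, 0.43 without Ddx3y, 0.06 with the oligodendrocyte covariate and 0.35 with replicates 4 to 6 alone. Pcsk1 became -0.04 with no filter, -0.27 by voom, -0.10 with the Ddx3y covariate, -0.82 within the libraries with Ddx3y, -0.72 with these averaged and -0.0039 without mitochondrial genes. Pcsk1n became 0.05 with Ddx3y. Without Ddx3y, Pcsk2 became 6.6e-05 and Cpe -0.02, and Cpe became -0.0043 with replicates 4 to 6 alone.

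For WT against PS19, the striatal covariate turned Scg3 to 0.36, Scg5 to 0.33, Vgf to 0.43, Pcsk1 to 1.14 and Pcsk2 to 0.58. Chgb became -0.02 with Ddx3y and -0.08 with the oligodendrocyte covariate, and Scg3 0.06 without Ddx3y. Between CgA-KO/PS19 and WT, the oligodendrocyte covariate turned Chgb to 0.31, Scg5 to 0.13, Vgf to 0.09, Pcsk2 to 0.14 and Pcsk1n to -0.16. Without Ddx3y, Scg5 became 0.10, Vgf 0.29 and Pcsk2 0.35, and with replicates 4 to 6 alone Chgb became 0.19, Scg5 0.07, Vgf 0.28 and Pcsk2 0.22. Pcsk1 became -0.23 by voom, -0.76 with the striatal covariate, -0.07 with the Ddx3y covariate, -0.70 with Ddx3y and -0.60 with these averaged.

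With each library left out in turn, 1019 (without CgA-KO/PS19 replicate 2) to 3822 (without CgA-KO/PS19 replicate 4) genes were called for CgA-KO/PS19 against PS19, with 3545 without WT replicate 4 and 1066 to 1407 without PS19 replicates 2 to 6 or CgA-KO/PS19 replicates 1 and 3. For WT against PS19 they were 632 (without WT replicate 5) to 1658, with 889 without PS19 replicate 2, and for CgA-KO/PS19 against WT 627 (without WT replicate 5) to 2099, with 847 without CgA-KO/PS19 replicate 2. The members called were 1, 0 to 1 (Pcsk1n) and 1 to 2 (Cpe or Scg3 beside Chga) in the 3 comparisons. The direction turned in some of these fits for Chgb (-0.27 to 0.15), Scg2 (-0.23 to 0.04) and Pcsk1 (-0.18 to 0.15) in CgA-KO/PS19 against PS19, for Scg3 (-0.13 to 0.02) and Pcsk1 (-0.11 to 0.05) in WT against PS19, and for Pcsk1 (-0.13 to 0.19) in CgA-KO/PS19 against WT.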
